A study of Mus musculus with 31 samples.

Results

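The 9 genes of the epidermal growth factor (EGF) receptor system described here were followed through ribosome profiling and total RNA sequencing of mouse squamous cell carcinoma (SCC) cells under proteasome inhibition. They comprised the receptors Egfr, Erbb2 and Erbb3, the ligands Areg, Ereg, Hbegf, Tgfa and Epgn, and the receptor inhibitor Errfi1, chosen by name and matched by Entrez identifier. All 9 of the 9 were present among the 20704 genes of the footprint table and the 24593 genes of the total RNA table, and all 9 passed the filter on low counts in both.

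The cells were clones of an Hras G12V skin SCC line. The sample labels give its other allele as TgfbrII fl/fl, whereas the study's list of cell lines gives both S51 and S51A as TgfbrII D/D (deleted) and keeps fl/fl for a separate keratinocyte line. Every group carries the same description in each source. CRISPR had removed the cells' own Eif2s1, the gene of the translation initiation factor eIF2α, in every clone, and a myc-tagged lentiviral copy driven by the PGK promoter stood in for it. The transgene was wild type in S51 cells, which are competent for the integrated stress response (ISR), and carried alanine in place of the regulated serine in S51A cells, which are ISR-null. Cells received vehicle (DMSO) or 100 nM bortezomib, a proteasome inhibitor, for 4.5 h according to the sample labels. The study's figure legend for the profiling experiment gives 4 h. Ribosome-protected fragments (RPFs) were sequenced in 15 libraries (4 per group, except 3 for S51 vehicle), and total RNA in 16 (4 per group). The submitters recorded an exchange of titles between the S51 bortezomib and S51A vehicle samples. Columns were assigned by that record, and every difference that involves these groups rests on it. The study used 2 clones per genotype and treated them as 1 group, and the clone behind each library is not named, so a difference between genotypes cannot be told apart from a difference between clones. Its text and legends differ on whether replicates were technical or biological, and the p-values therefore measure the spread between these libraries.

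EGF family ligands are made as membrane-anchored precursors, released by proteases of the ADAM family, and bind receptor tyrosine kinases that signal through RAS and ERK to growth and survival. In the epidermis, amphiregulin (Areg), epiregulin (Ereg), heparin-binding EGF-like growth factor (Hbegf), transforming growth factor alpha (Tgfa) and epigen (Epgn) all act on the EGF receptor, often on the cell that makes them. Errfi1 encodes MIG6, a feedback protein that binds and inhibits the receptors and is itself induced by ERK signalling.

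On the mouse build GRCm38 (mm10), Epgn (chr5:91027517-91035212), Ereg (chr5:91074617-91093649) and Areg (chr5:91139599-91148432) are neighbours within 120916 bp, with Btc, the gene of another ligand, the next protein-coding gene beyond Areg. A long non-coding RNA gene, Gm19610, overlaps the start of Ereg, and no strand setting of the counting was given. Tgfa is at chr6:86195038-86275744, Erbb3 at chr10:128567523-128589635, Egfr at chr11:16752203-16913907, Erbb2 at chr11:98412484-98437716 and Errfi1 at chr4:150853796-150868889.

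Promoter sequences from RefSeq on the same build, spanning 250 bases before to 50 bases after the start site, were used for 6 of the 9 genes (Areg, Epgn, Tgfa, Egfr, Erbb2 and Errfi1), with 7 promoters, 2 of them of Errfi1. They were searched on both strands for TGACGTCA (the cyclic AMP response element, CRE), TGANTCA (AP-1), TGATGNAA (the composite element bound by ATF4), the heat shock element and the TATA box (its 6 letters are the shorter capitals in the stretches printed here). None of these motifs contains another. The CRE was found in the Areg promoter and in 1 Errfi1 promoter, 61 and 51 bases before the start sites, and in 1.79% of all 32851 promoters. Both promoters also held the TATA box letters, 31 and 28 bases before the start site, as did the Epgn promoter at 86 bases, against 13.6% of all promoters. No promoter of the 6 genes held the AP-1, ATF4 or heat shock letters (7.81%, 3.97% and 0.603% of all promoters). These stretches are shown because Areg and Errfi1 moved in opposite directions under bortezomib, as described below, with the motif in capitals, 5′ to 3′ on the plus strand.
Areg CRE, chr5:91139527-91139556: gggctggtccgTGACGTCAcgggcggtggc
Errfi1 CRE, chr4:150855008-150855037: gctgcgggcgtTGACGTCAcgttgtcgctc
Areg TATA box, chr5:91139556-91139585: ctccagcgggtcTATAAAagcagcaggtgc
Errfi1 TATA box, chr4:150855030-150855059: tgtcgctcaccgTATAAAtacgggcgtcgg
Epgn TATA box, chr5:91027419-91027448: cgcttcgtgaaaTATAAAtggaagaaagac
The matches are letters in a window, and no binding was measured.

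Library totals ran from 1038826 to 4902237 counts for RPF and from 18758668 to 22994713 for total RNA, and footprint counts per library were small for some ligands (6 to 54 for Ereg, 8 to 46 for Epgn, 14 to 75 for Areg). In such bulk libraries, fewer cells of a type and less RNA per cell cannot be told apart. Eif2s1, which the transgene also encodes, had 279.1 to 314.1 CPM (counts scaled by library size and TMM factors) in total RNA. Its RPFs ran from 81.22 to 259.8 CPM and were called higher in S51A than in S51 vehicle (0.73, adjusted p = 0.00234), as was its TE (0.79, adjusted p = 0.0209). The RPF levels spread from 81.22 to 171 CPM within S51 vehicle and from 212.6 to 259.8 CPM within S51A vehicle. Neither call was refitted with a library left out. The basal keratinocyte markers Krt5, Krt14, Trp63, Itga6, Itgb4 and Cdh1 were all present, with a summed level of 10630 to 15370 CPM in total RNA. Of 10 markers of other cells, Col1a1, Col1a2 and Pdgfrb (fibroblasts), Ptprc and Itgam (immune cells) and Cdh5 (endothelium) had 0 to 4 counts in any library, and Pecam1 had 0 to 15. The other 3 were present at low level and moved with the groups. Pdgfra RPFs were called higher in S51 bortezomib (1.19, adjusted p = 0.0452) and S51A vehicle (1.25, adjusted p = 0.0205) than in S51 vehicle. Kdr was called lower in S51A than in S51 vehicle in RPFs (-1.38, adjusted p = 0.031) and total RNA (-1.45, adjusted p = 2.31e-07). Cd68 total RNA passed the test in S51 bortezomib over vehicle (0.51, adjusted p = 0.000233) and S51A over S51 vehicle (0.67, adjusted p = 4.89e-06). Summed levels of the 3 lists were 2.692 to 6.935 (fibroblast), 3.272 to 7.371 (immune) and 1.232 to 4.883 CPM (endothelial) in total RNA, and 0.4835 to 9.545, 7.282 to 17.43 and 0.9665 to 8.608 CPM in RPFs. Their part in the results was not tested. Of 4 differentiation markers (Krt1, Krt10, Ivl and Lor), 2 were tested in total RNA, and 1 of these was called higher in S51A than in S51 vehicle. Ivl alone is given with values. It moved with genotype and treatment, from a mean of 24.45 CPM (S51 vehicle) to 78.4 (S51A vehicle), 10.4 (S51 bortezomib) and 39.92 (S51A bortezomib) in total RNA. Its part in the differences below was not tested. Replicate 2 of the S51 vehicle RPF libraries stood apart, with a chi-square per gene of 12.8 and 18.1 against its group mates, where the other 19 RPF pairs lay between 1.65 and 4.91.

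Per length of coding sequence, Tgfa carried the highest footprint density of the 9 genes in every group. Its mean was 92.64 CPM per kb ± 6.391 (SD, n = 3) in S51 vehicle cells, followed by Hbegf at 41.63 ± 4.012, and the ranges of both stood clear of each other and of the next gene. Errfi1, Epgn, Egfr, Erbb2, Areg and Ereg followed between 23.33 and 14.67 CPM per kb, with each gene's range overlapping that of its neighbour in the order. Erbb3 was lowest at 4.225 ± 0.1542 CPM per kb, below the range of every other gene. After bortezomib, Areg ranked second in both genotypes, at 39.69 ± 12.45 CPM per kb in S51 cells and 31.09 ± 3.786 in S51A cells (SD, n = 4), while Hbegf stood at 28.45 ± 1.726 and 19.74 ± 6.13. In S51 cells the ranges of Tgfa, Areg, Hbegf and Epgn then overlapped each with the next.

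**Figure D1:**
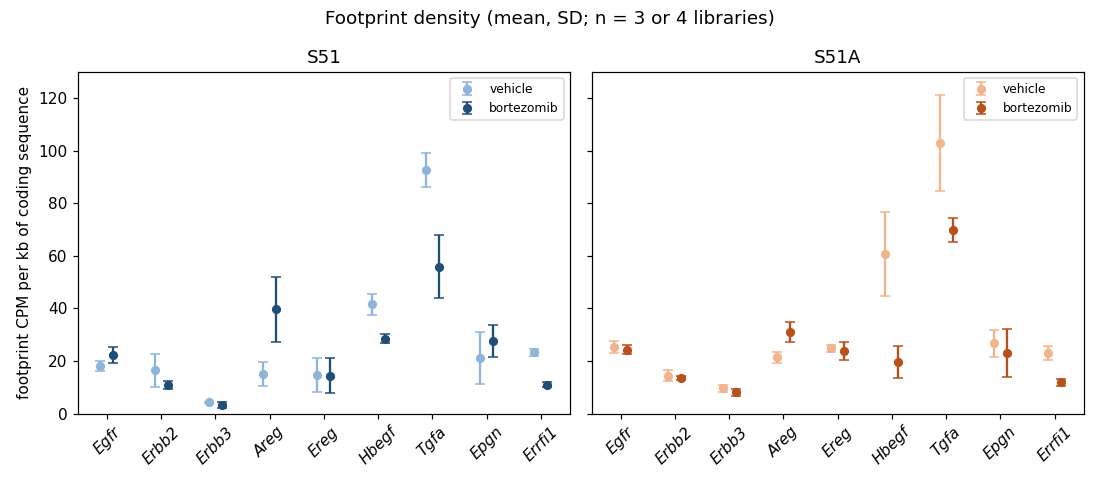
Mean footprint density (RPF CPM per kb of counted coding sequence, SD as bars, n = 3 libraries for S51 vehicle and 4 otherwise) of the 9 genes in S51 and S51A cells. Tgfa is highest in each group, Erbb3 lowest, and Areg is the only gene whose mean rises in both genotypes with bortezomib.

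The first comparison asked how proteasome inhibition changed these genes in ISR-competent cells. Counts were scaled within each kind of library, so every rise or fall in RPFs, total RNA or TE is relative to the other genes. The study reported reduced global protein synthesis under bortezomib, by puromycin incorporation after a longer exposure. Amounts per cell were not measured here. In RPFs of S51 cells, Areg rose and Tgfa and Errfi1 fell past the call (adjusted p below 0.05 in edgeR's quasi-likelihood test and a fold change above 1.5), which is 3 of 9 genes where 18.6% of all 9457 genes tested were called. In total RNA the call required a fold change above 2, and Hbegf and Errfi1 fell, 2 of 9 against 4.99% of 11708 genes. By adjusted p alone, total RNA of 8 of the 9 changed, where 59.8% of all genes did, with Egfr and Areg higher and Erbb2, Ereg, Hbegf, Tgfa, Epgn and Errfi1 lower. The median total RNA change of the 9 was -0.338 on the log2 scale, beside -0.007 over all genes.

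In ISR-null cells the same comparison called Hbegf and Errfi1, both lower, in RPFs (2 of 9, against 10.9% of all genes) and the same pair in total RNA (2 of 9, against 4.18%). By adjusted p alone, total RNA of 7 of the 9 changed, where 56.4% of all genes did, Areg higher and the 6 that also fell in S51 cells lower. Their median total RNA change was -0.241, beside -0.012 over all genes. The difference between the genotypes' responses was called for none of the 9, where 1.86% of all genes were called in RPFs and 0.478% in total RNA. By adjusted p alone, in the same edgeR fits, 0 of the 9 passed in RPFs (2.35% of all genes) and 2 (Hbegf and Egfr) in total RNA (21.6% of all genes).

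**Figure D2:**
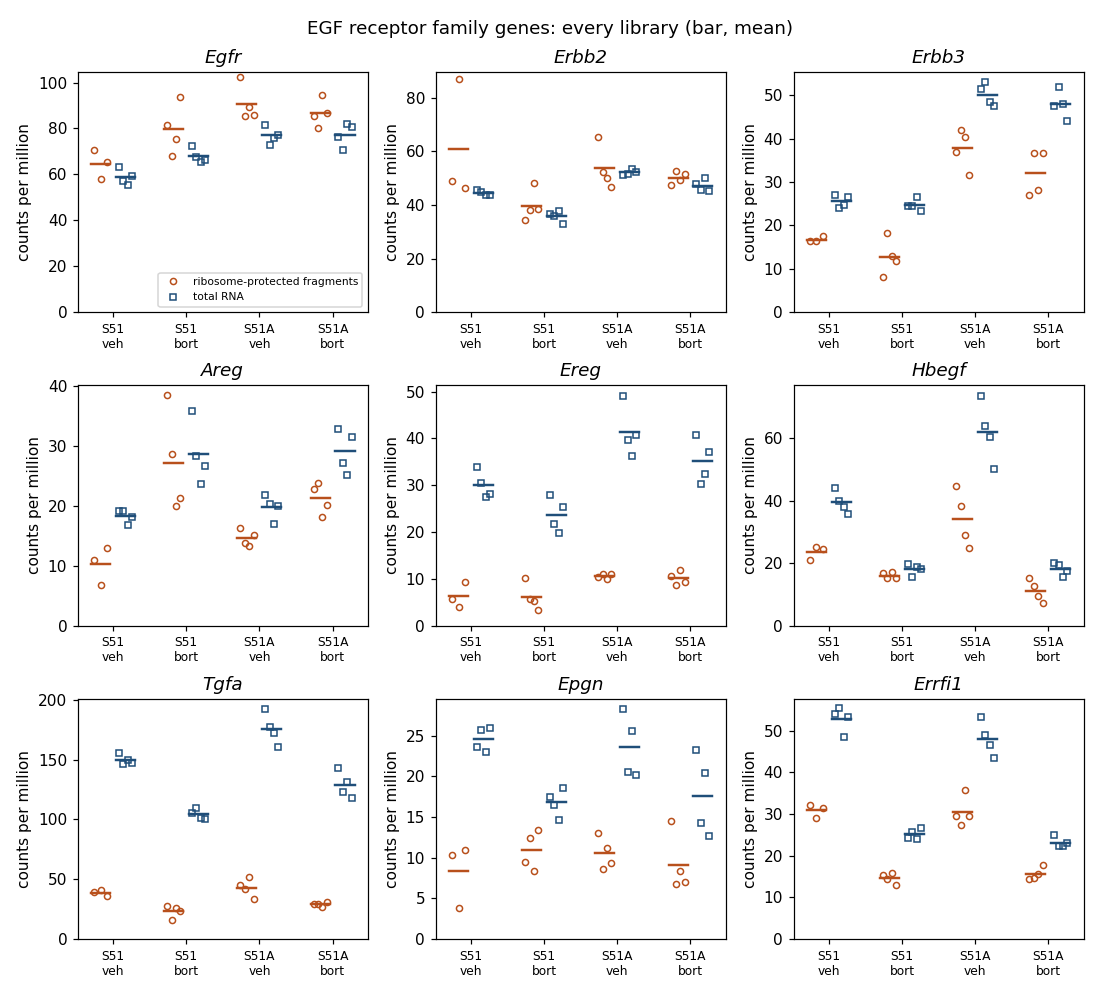
CPM of each gene in every library, RPFs as circles and total RNA as squares, with group means as bars and an axis from 0 in each panel. Areg rises with bortezomib (veh, vehicle; bort, bortezomib) in both genotypes, Hbegf and Errfi1 fall, and Erbb3 is higher in S51A cells.

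Areg, a low-affinity EGF receptor ligand, had RPF levels of 10.98, 6.768 and 12.94 CPM in S51 vehicle and 38.57, 28.69, 20.05 and 21.29 CPM in S51 bortezomib. All 4 treated libraries lay above all 3 vehicle libraries. The log2 fold change was 1.29 (SE 0.236, edgeR adjusted p = 0.000277), and 1.10 (adjusted p = 0.000231) without S51 vehicle replicate 2, the lowest of the group. In S51A cells the RPF levels were 16.35, 13.73, 13.28 and 15.21 CPM with vehicle and 22.87, 23.88, 18.2 and 20.12 CPM with bortezomib, again without overlap. This difference of 0.55 (SE 0.199) had an adjusted p of 0.0553 in edgeR, or 0.0147 without S51 vehicle replicate 2, in either case below the fold limit.

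In total RNA, Areg levels were 19.08, 19.07, 16.75 and 18.08 CPM in S51 vehicle, against 35.89, 28.28, 23.67 and 26.65 CPM in S51 bortezomib. The log2 fold change was 0.65 (SE 0.104, adjusted p = 7.8e-06), and that of S51A cells was 0.56 (SE 0.103, adjusted p = 5.54e-05), from 16.95 to 21.86 CPM in vehicle to 25.17 to 32.94 CPM in bortezomib. The transcript thus rose in both genotypes, and by value the footprint change exceeded the transcript change in S51 cells. That excess is the TE change given with the footprints per RNA, and it did not pass its test. The RPF responses of S51 and S51A cells differed by 0.74 (SE 0.309, adjusted p = 0.235), with an approximate 95% interval (from the SE) of 0.14 to 1.35, and this difference did not pass either.

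Hbegf, a ligand of both EGFR and ERBB4, had the lowest log2 fold change of the 9 in total RNA of both genotypes and in RPFs of S51A cells, but not in RPFs of S51 cells. Total RNA levels were 44.19, 39.96, 38.1 and 35.74 CPM in S51 vehicle and 19.66, 15.71, 18.66 and 18.11 CPM in S51 bortezomib. In S51A cells they were 73.69, 63.95, 60.34 and 50.29 CPM with vehicle and 20, 19.36, 15.72 and 17.6 CPM with bortezomib. Treated groups of both genotypes therefore overlapped with each other, while the S51A vehicle libraries all lay above those of S51 vehicle.

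The total RNA log2 fold change of Hbegf was -1.13 in S51 (SE 0.0988, adjusted p = 5.29e-10) and -1.77 in S51A cells (SE 0.0962, adjusted p = 1.17e-13). The responses differed by 0.64 (SE 0.139, adjusted p = 0.00182 in edgeR), a 1.558-fold difference under the limit of 2 for a call. Leaving out any 1 of the 16 total RNA libraries gave a difference between 0.545 and 0.728, with adjusted p between 0.000148 and 0.00534.

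Hbegf footprints were 20.9, 25.14 and 24.39 CPM in S51 vehicle and 16.74, 15.3, 17.02 and 15.12 CPM in S51 bortezomib. They were 44.86, 38.22, 29.05 and 24.95 CPM in S51A vehicle and 15.14, 12.67, 9.362 and 7.351 CPM in S51A bortezomib. Neither genotype's treated and vehicle libraries overlapped. The RPF log2 fold change was -0.54 in S51 (SE 0.234, adjusted p = 0.0874) and -1.58 in S51A cells (SE 0.207, adjusted p = 8.41e-06). The difference in RPF response, 1.04 (SE 0.318), had an adjusted p of 0.0848 in edgeR. It was 1.07 (adjusted p = 0.0344) without S51 vehicle replicate 2 and 1.27 (adjusted p = 0.0442) without S51A bortezomib replicate 1, both past the call.

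Tgfa, a high-affinity EGFR ligand, had RPF levels of 39.68, 40.61 and 35.6 CPM in S51 vehicle and 27.66, 16.26, 25.72 and 23.53 CPM in S51 bortezomib. The groups did not overlap, and the log2 fold change was -0.69 (SE 0.17, adjusted p = 0.00404). In S51A cells it was -0.53 (SE 0.144, adjusted p = 0.0109), from 33.26 to 51.46 CPM in vehicle to 26.53 to 30.95 CPM in bortezomib, under the fold limit of 1.5 but at -0.65 (adjusted p = 0.00276) and past it without S51A vehicle replicate 4. Total RNA of Tgfa fell from 146.2 to 155.6 CPM to 100.6 to 109.1 CPM in S51 cells. The log2 fold change in total RNA was -0.52 in S51 (SE 0.0529, adjusted p = 7.07e-09) and -0.45 in S51A cells (SE 0.0521, adjusted p = 9.29e-08).

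Ereg and Epgn, the chromosome 5 neighbours of Areg, did not follow it. Ereg total RNA was 33.82, 30.44, 27.45 and 28.08 CPM in S51 vehicle and 27.88, 21.63, 19.83 and 25.38 CPM in S51 bortezomib, a log2 fold change of -0.34 (SE 0.106, adjusted p = 0.00803) with 1 treated library above the lowest vehicle value. Epgn total RNA was 23.61, 25.71, 23.04 and 25.99 CPM in S51 vehicle and 17.44, 16.53, 14.63 and 18.52 CPM in S51 bortezomib, without overlap, a log2 fold change of -0.55 (SE 0.134, adjusted p = 0.000998). Areg was thus the only 1 of the 3 clustered ligand transcripts that rose, and both others fell.

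In S51A cells the total RNA changes were -0.24 for Ereg (SE 0.0994, adjusted p = 0.0422) and -0.43 for Epgn (SE 0.134, adjusted p = 0.00929). Epgn levels there were 28.29, 20.49, 25.53 and 20.11 CPM in vehicle and 23.17, 14.23, 20.42 and 12.7 CPM in bortezomib, with replicates 1 and 3 above replicates 2 and 4 in each group. In the RPF libraries of S51A cells, replicates 1 and 3 of Epgn were also above replicates 2 and 4 (13.08, 8.658, 11.2 and 9.33 CPM in vehicle, 14.5, 6.822, 8.322 and 6.964 CPM in bortezomib). In S51 vehicle total RNA the order was the opposite, and what sets these pairs of libraries apart was not tested.

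RPF changes of Epgn and Ereg did not pass the test in either genotype. For Epgn they were 0.26 in S51 (SE 0.327, adjusted p = 0.574) and -0.11 in S51A cells (SE 0.28), on 8 to 46 counts per library. For Ereg they were -0.18 (SE 0.329, adjusted p = 0.723) and -0.07 (SE 0.237, adjusted p = 0.881), on 6 to 54 counts. For Ereg the total RNA changes lay within the RPF intervals of both genotypes, so changes of that size were not detectable at this depth. For Epgn the S51 interval, -0.38 to 0.90, did not include the total RNA change of -0.55, while the S51A interval, -0.66 to 0.44, included that of -0.43. Without S51 vehicle replicate 2, however, the S51 RPF change of Epgn was -0.006 (adjusted p = 0.991). These intervals leave out the error of the total RNA change, and the TE test of Epgn, given with the footprints per RNA, did not pass. The remaining ligand of the cluster, Btc (betacellulin), had 10 to 41 total RNA counts and 0 to 3 RPF counts in any library.

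Errfi1 fell alike by value in both kinds of library and both genotypes. Its RPF levels were 32.24, 29.01 and 31.36 CPM in S51 vehicle and 15.28, 14.35, 15.89 and 12.88 CPM in S51 bortezomib. In S51A cells they were 29.44, 27.45, 35.69 and 29.61 CPM with vehicle and 14.5, 14.62, 15.6 and 17.8 CPM with bortezomib. Every treated library lay below every vehicle library. The RPF log2 fold changes were -1.07 (SE 0.16, adjusted p = 2.65e-05) and -0.95 (SE 0.139, adjusted p = 3e-05). Those of total RNA were -1.07 (SE 0.062, adjusted p = 3.01e-13) and -1.05 (SE 0.063, adjusted p = 8.18e-13), the latter -0.997 and just under the call without S51A vehicle replicate 1 of total RNA. The responses differed by -0.02 in total RNA, with an interval from -0.19 to 0.16, and by -0.12 in RPFs, with an interval from -0.54 to 0.30.

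Among the receptors, Egfr total RNA was 63.37, 57.22, 55.35 and 59.43 CPM in S51 vehicle and 72.39, 67.55, 65.37 and 66.41 CPM in S51 bortezomib. The groups did not overlap, and the log2 fold change was 0.21 (SE 0.0521, adjusted p = 0.00136). It was 0.00 in S51A cells (SE 0.0508, adjusted p = 0.96), and the responses differed by 0.20 (SE 0.0728, adjusted p = 0.0467). Scaling by library totals alone moved the median total RNA change over all genes to -0.161 in S51 and -0.127 in S51A cells, and Egfr then stood at 0.05 (adjusted p = 0.396) in S51 cells, with a response difference of 0.17 (adjusted p = 0.119). Leaving out 1 total RNA library at a time brought the adjusted p of that difference to 0.05 or above in 10 of 16 fits (range 0.0207 to 0.115). The other members that rose or fell in total RNA with bortezomib in either genotype kept their direction and passed the adjusted p under scaling by library totals alone. The response difference of Erbb2 in total RNA was -0.16 (adjusted p = 0.0801) in the main fit. Under that scaling it was -0.20 and passed (adjusted p = 0.0334).

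Erbb2 RPFs were 48.89, 87.02 and 46.3 CPM in S51 vehicle and 34.21, 38.26, 48.04 and 38.65 CPM in S51 bortezomib. The high value was replicate 2, the library that stood apart, and the log2 fold change of -0.55 (SE 0.189, adjusted p = 0.0324) became -0.22 (adjusted p = 0.278) without it. Leaving out S51 vehicle replicate 1, S51 vehicle replicate 3 or S51 bortezomib replicate 3 instead brought it past the call, at -0.67 (adjusted p = 0.0169), -0.74 (adjusted p = 0.00507) and -0.68 (adjusted p = 0.0245). In total RNA, where the groups did not overlap, Erbb2 fell by 0.31 on the log2 scale in S51 cells (SE 0.0478, adjusted p = 4.48e-06) and by 0.15 in S51A cells (SE 0.0462, adjusted p = 0.00874). Erbb3, the kinase-impaired partner receptor of ERBB2, had bortezomib changes of -0.05 and -0.06 in total RNA and -0.43 and -0.23 in RPFs in S51 and S51A cells, none of which passed the test (adjusted p from 0.146 to 0.493). Scaled by library totals alone, the total RNA of Erbb3 fell by 0.205 (adjusted p = 0.00593) and 0.18 (adjusted p = 0.00761), close to the shift of all genes.

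**Figure D3:**
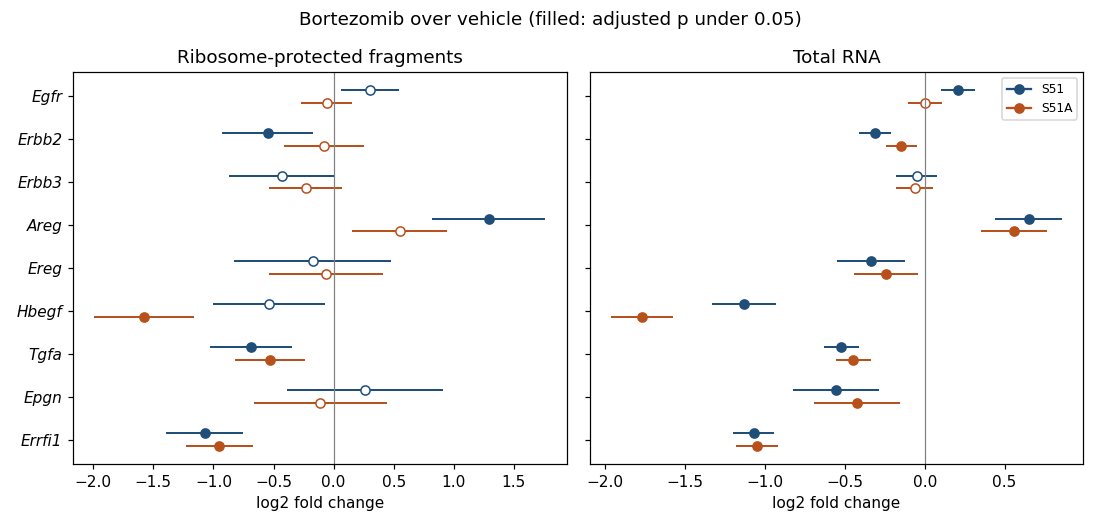
Log2 fold change of bortezomib over vehicle with approximate 95% intervals for the 9 genes, in S51 (blue) and S51A (orange) cells, RPFs left and total RNA right. Filled points have an adjusted p below 0.05. Areg lies to the right of 0 in all 4 estimates, Tgfa and Errfi1 to the left in all 4, and the Hbegf estimates of S51A cells lie furthest left.

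The second comparison set ISR-null against ISR-competent cells at the same treatment. With vehicle, 1 of the 9 genes (Erbb3, higher in S51A) was called in RPFs, where 15.8% of all genes were called, and none in total RNA, where 7.87% were. With bortezomib it was again Erbb3 alone in RPFs (17.7% of all genes) and none in total RNA (8.28%). By adjusted p alone, edgeR found total RNA of 6 genes higher in S51A vehicle (Egfr, Erbb2, Erbb3, Ereg, Hbegf and Tgfa) and 1 lower (Errfi1), where 63.8% of all genes passed. With bortezomib 5 were higher (Egfr, Erbb2, Erbb3, Ereg and Tgfa), where 65.7% of all genes passed.

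Erbb3 showed the largest genotype difference of the 9. Its total RNA levels were 26.98, 23.9, 24.74 and 26.54 CPM in S51 vehicle and 51.47, 53.11, 48.35 and 47.4 CPM in S51A vehicle. RPF levels were 16.3, 16.44 and 17.42 CPM against 36.91, 42.02, 40.25 and 31.64 CPM. No S51A library overlapped with S51 in either kind or either treatment. The log2 difference was 0.97 in total RNA (SE 0.0582, adjusted p = 4.84e-13) and 1.16 in RPFs (SE 0.175, adjusted p = 4.03e-05) with vehicle. With bortezomib it was 0.96 (SE 0.0594, adjusted p = 7.52e-13) and 1.36 (SE 0.195, adjusted p = 1.67e-05), and the total RNA value reached 1.01 and the call when scaled by library totals alone.

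Egfr was 1.309-fold higher in total RNA of S51A vehicle (73 to 81.58 CPM against 55.35 to 63.37 CPM, log2 0.39, SE 0.0515, adjusted p = 4.95e-07). Its RPFs were higher by 0.48 (SE 0.114, adjusted p = 0.00331), without overlap between the groups. With bortezomib the differences were 0.18 in total RNA (SE 0.0514, adjusted p = 0.00305) and 0.12 in RPFs (SE 0.111, adjusted p = 0.46). Erbb2 total RNA was higher in S51A cells by 0.23 with vehicle (SE 0.0461, adjusted p = 0.000133) and by 0.39 with bortezomib (SE 0.0479, adjusted p = 1.12e-07), and its groups did not overlap.

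Of the ligands, Hbegf total RNA was higher by 0.65 in S51A vehicle (SE 0.088, adjusted p = 6.13e-07), whereas with bortezomib the difference was 0.01 (SE 0.107, adjusted p = 0.912), with an interval from -0.20 to 0.23. Hbegf RPFs were higher by 0.53 in S51A vehicle (SE 0.197, adjusted p = 0.0494), under the fold limit, and past it without S51A vehicle replicate 3 (0.59, adjusted p = 0.0464) or replicate 4 (0.67, adjusted p = 0.0152). With bortezomib they differed by -0.51 (SE 0.25, adjusted p = 0.124), or -0.74 (adjusted p = 0.0445) without S51A bortezomib replicate 1. Ereg total RNA was higher in S51A cells by 0.47 with vehicle (SE 0.1, adjusted p = 0.000243) and 0.57 with bortezomib (SE 0.105, adjusted p = 4.48e-05). Ereg footprints were 5.668, 3.868 and 9.21 CPM in S51 vehicle and 10.28, 10.98, 9.96 and 10.95 CPM in S51A vehicle, all higher in S51A. That RPF difference of 0.67 (SE 0.267) had an adjusted p of 0.0651, and it was called at 1.08 (adjusted p = 0.0136) without S51 vehicle replicate 3 and at 0.67 (adjusted p = 0.0476) without S51 bortezomib replicate 1. With bortezomib it was 0.78 (SE 0.3, adjusted p = 0.0525), and it was called without S51 vehicle replicate 2 (0.78, adjusted p = 0.0281), S51 vehicle replicate 3 (0.76, adjusted p = 0.0402) or S51 bortezomib replicate 1 (1.09, adjusted p = 0.0127). Areg and Epgn total RNA did not pass the test between genotypes at either treatment (adjusted p from 0.329 to 0.793).

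**Figure D4:**
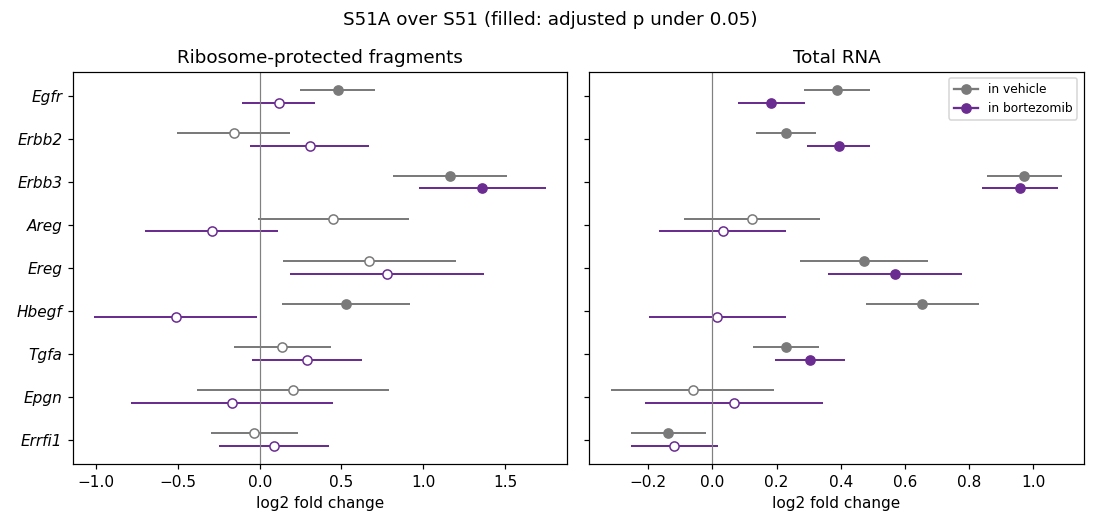
Log2 fold change of S51A over S51 cells with approximate 95% intervals for the 9 genes, with vehicle (grey) and with bortezomib (purple), RPFs left and total RNA right. Filled points have an adjusted p below 0.05. Erbb3 lies near 1 or above in all 4 estimates, and Hbegf total RNA is at 0.65 with vehicle and 0.01 with bortezomib.

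Translational efficiency (TE), the footprints per unit of total RNA, was tested as an interaction over all 31 libraries. None of the 9 genes was called or passed the adjusted p of edgeR in any of the 5 comparisons. Over all genes 5.27% were called for bortezomib in S51 cells, 0.983% for bortezomib in S51A cells, 0.0846% between genotypes with vehicle, 3.07% between genotypes with bortezomib and 1.29% for the difference in response. At an unadjusted p below 0.05 the 9 genes gave Areg and Hbegf for bortezomib in S51 cells, Erbb2 between genotypes with vehicle and Erbb3 with bortezomib. The share of all genes at that unadjusted limit is not given here, so these names are not read as a result about the 9 genes. By DESeq2, too, 0 were called in each comparison.

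The ratio of RPF to total RNA CPM in each lysate gives the values behind this test. Areg stood between 0.3549 and 0.7725 in S51 vehicle and between 0.7989 and 1.075 in S51 bortezomib, without overlap, and between 0.673 and 0.7835 and between 0.6377 and 0.8786 in S51A cells. Its TE change in S51 cells was 0.60 (SE 0.281, adjusted p = 0.192) and in S51A cells -0.01 (SE 0.239, adjusted p = 1). By the study's rule, in which the RPF change is called and the RPF change exceeds the total RNA change by 1.5-fold, Areg would count as translationally higher in S51 cells, the only 1 of the 9 in any comparison. Without S51 vehicle replicate 2 the TE change was 0.43 (adjusted p = 0.419).

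Hbegf ratios were 0.473 to 0.6402 in S51 vehicle and 0.8349 to 0.9739 in S51 bortezomib, also without overlap, and 0.4814 to 0.6088 against 0.4177 to 0.757 in S51A cells. Its TE change was 0.60 in S51 (SE 0.284, adjusted p = 0.197) and 0.21 in S51A cells (SE 0.259, adjusted p = 1). Epgn ratios rose by value from 0.1504 to 0.4753 up to 0.5425 to 0.752 in S51 cells, a TE change of 0.78 with a wide SE of 0.424 (adjusted p = 0.278), and of 0.54 (adjusted p = 0.51) without S51 vehicle replicate 2. Errfi1 TE changes were -0.01 in S51 (SE 0.163, adjusted p = 0.993), with an interval from -0.33 to 0.31, and 0.11 in S51A cells (SE 0.146, adjusted p = 1). Erbb2 was called lower in TE between genotypes with vehicle (-0.60, adjusted p = 0.0188) only when S51 vehicle replicate 3 of RPF was left out, where the value with all libraries was -0.37 (adjusted p = 0.287). Without S51 vehicle replicate 2 of RPF it was -0.085 (adjusted p = 0.957). The Erbb2 ratio of that library was 1.937, against 1.076 and 1.055 in its group mates.

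**Figure D5:**
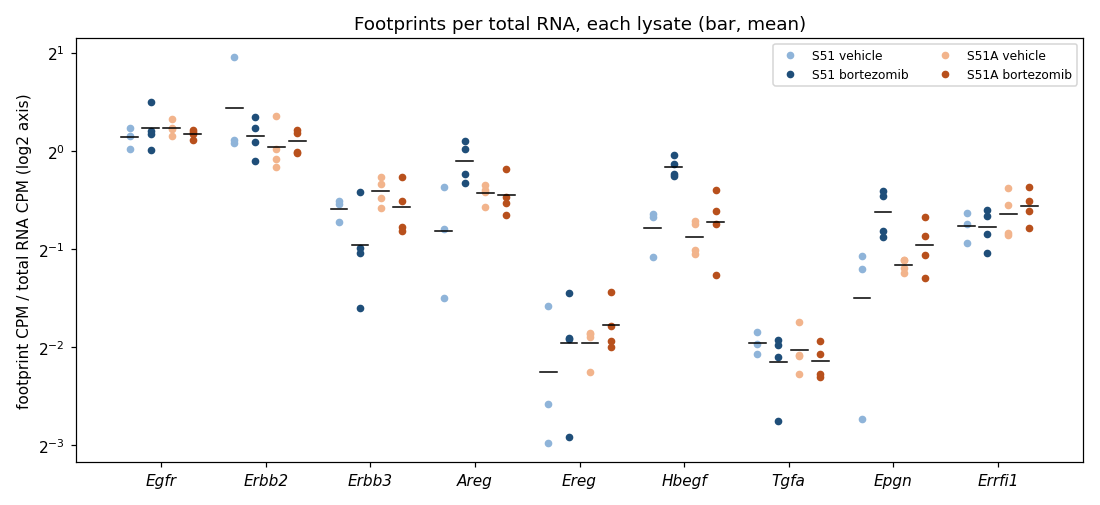
Ratio of RPF to total RNA CPM on a log2 axis for each gene in the 15 lysates with both kinds of library, with group means as bars. In S51 cells the bortezomib lysates of Areg, Hbegf and Epgn lie above the vehicle lysates, with 1 low vehicle point of Areg and of Epgn from replicate 2.

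Other genes of the pathway were read from lists, and the response difference was called for none of their genes in RPFs or total RNA. The counts of each list are read against the shares of all genes called with bortezomib, which were 18.6% (S51) and 10.9% (S51A) in RPFs and 4.99% and 4.18% in total RNA. Among 13 genes that mark ERK feedback or ERK output, 9 were tested in RPFs, of which 6 fell in S51 and 5 in S51A cells, with medians of -1.036 and -0.646. In total RNA 5 and 4 of 12 fell past the call. Summed RPFs of the list overlapped between treatments, at 810.1 to 1432 CPM (S51 vehicle) and 792.4 to 1040 CPM (S51 bortezomib). In S51A cells they were 978.1 to 1186 and 799.9 to 1046 CPM. Summed total RNA did not overlap, at 415.4 to 425 against 228.3 to 272.8 CPM (S51) and 443.1 to 468.1 against 242.6 to 282.6 CPM (S51A). The RPF changes in S51 and S51A cells were -2.19 (SE 0.196, adjusted p = 2e-08) and -1.64 (SE 0.167, adjusted p = 2.4e-07) for Dusp5, an ERK phosphatase. For Dusp6, another ERK phosphatase, they were -1.57 (adjusted p = 1.76e-07) and -2.21 (adjusted p = 1.08e-09), and for Spry2, an inhibitor of receptor signalling to RAS, -1.89 (adjusted p = 0.00153) and -1.33 (adjusted p = 0.014).

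Of 8 sheddases and iRhoms, which release the ligands from the membrane, 7 were tested in RPFs and 2 rose in S51 cells, none in S51A cells, counts too small to set apart from those shares. Rhbdf2 encodes iRhom2, a partner of the protease ADAM17, and its RPFs rose by 1.11 in S51 (SE 0.165, adjusted p = 2.6e-05) and by 0.49 in S51A cells (adjusted p = 0.0201, under the fold limit). Its total RNA rose by 1.04 and 0.51 (adjusted p = 7.07e-12 and 1.73e-06), and that difference in response passed the test (0.53, SE 0.102, adjusted p = 0.000628). Adam17, the main sheddase of Areg, Hbegf and Tgfa, rose by 0.63 in RPFs of S51 cells (SE 0.153, adjusted p = 0.00355) with a total RNA change of 0.02 (adjusted p = 0.695). Its TE change was called at 0.60 (SE 0.134, adjusted p = 0.00217). In S51A cells the TE change of Adam17 was 0.08 (adjusted p = 1), and the difference between the responses in TE, 0.53 (SE 0.175), did not pass (adjusted p = 0.137).

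All 14 genes of receptor traffic and turnover were tested, and in RPFs of S51 cells 1 rose and 2 fell, against 1 and 1 in S51A cells, near the shares of all genes. Lrig1, a negative regulator of the ERBB receptors, fell in RPFs by 1.59 in S51 (SE 0.219, adjusted p = 1.05e-05) and by 1.09 in S51A cells (SE 0.182, adjusted p = 0.000141). Stam, an endosomal sorting protein, rose by 0.97 (adjusted p = 4.11e-07) and 0.61 (adjusted p = 3.45e-05). Epn1, an endocytic adaptor, fell in RPFs by 0.75 in S51 cells (adjusted p = 0.00184), with a total RNA change of 0.05 and a TE change of -0.79 (SE 0.163, adjusted p = 0.000911), and was at 0.07 in RPFs of S51A cells (adjusted p = 0.8). That difference between the RPF responses, -0.82 (SE 0.223), had an adjusted p of 0.0544.

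None of 12 adaptors and proximal effectors (Grb2, Shc1, Sos1 and others) was called in RPFs for bortezomib in either genotype, with medians of 0.097 and 0.128. At the remaining ligand and receptor genes, 2 of 7 were tested in RPFs. Nrg2, which encodes an ERBB3 and ERBB4 ligand, fell by 1.16 (SE 0.144, adjusted p = 2.81e-06) and 1.03 (SE 0.135, adjusted p = 8.32e-06). Erbb4 had 0 counts in all 31 libraries, which allows at most 0.126 to 0.164 CPM in a total RNA library (3 counts, counting error only).

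Over the 16 total RNA libraries, the genes with the most similar pattern by Pearson's r of log2 CPM are given as a description, since all points share the same 4 groups. For Errfi1 they were Bnc1 (r = 0.991) and Myc (0.988), for Hbegf Tgif1 (0.980) and Sertad4 (0.979), and for Areg Wwp1 (0.934) and Lrp8 (0.923). Tgfa was most like Cxcl3 (0.983) and Bok (0.980), Ereg like Plekhm3 (0.928) and Arhgef4 (0.927), and Epgn like Vsnl1 (0.904) and Ovol2 (0.877). For the receptors they were Pvr (0.949) and Dusp11 (0.947) with Egfr, Pbp2 (0.981) and Vangl1 (0.977) with Erbb2, and Basp1 and Prl2c5 (both 0.991) with Erbb3. Prl2c5 belongs to a family of near-identical genes, and its counts are uncertain.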

How the data were processed

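Per the labels and the methods of the study, the authors sequenced ribosome-protected fragments and total RNA from the same lysates, aligned the reads to mm10 (Bowtie2, featureCounts and DESeq2 are named in the submitters' processing notes) and deposited raw counts per gene, used here as deposited. RPFs were counted over coding sequences without the first 15 and last 5 codons, and the region counted for total RNA is not given in the sources used here. Columns were assigned by the series note on exchanged titles of S51 bortezomib and S51A vehicle samples.

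Counts were tested with the quasi-likelihood test of edgeR 4.0.16 (R 4.3.3, limma 3.58.1), TMM factors and a filter at 10 counts (15 in total), over all 4 groups for each kind of library. TE was an interaction over 31 libraries. P-values were adjusted (Benjamini-Hochberg) over the 9457 genes tested in RPFs and TE and the 11708 tested in total RNA. Genes were called past a fold change of 1.5 (RPFs, TE) or 2 (total RNA) where the adjusted p was below 0.05. The scripts were tested on simulated data. Alternatives were DESeq2 1.42.0, other scalings, filters, limits and blocks, and leaving out each library. Totals of 1038826 to 4902237 (RPF) and 18758668 to 22994713 (total RNA) set the precision, and intervals cover counting error and the spread between these libraries. No library was a copy of another of its group, as the chi-square per gene between group mates was at least 1.65 (RPF) and 2.75 (total RNA). Libraries of different groups were not compared in this way.

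The 9 genes and the pathway lists were chosen with earlier results of these data known. The genes named are all 9, in each list up to 3 with the largest RPF change among those called for bortezomib in S51 cells, Eif2s1, and the 2 genes most correlated with each of the 9. Erbb4, Btc and the markers given with values were named after their values were seen.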

Additional observations from a re-analysis of the deposited data

Results flagged for a closer look

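The response to bortezomib differed between the genotypes in total RNA for Hbegf, by 0.64 on the log2 scale (S51 minus S51A, adjusted p = 0.00182), and for Egfr, by 0.20 (adjusted p = 0.0467), both by the interaction term of edgeR. Hbegf fell in all 4 bortezomib libraries of each genotype, further in S51A cells. For Egfr the adjusted p was 0.05 or above in 10 of 16 fits that left out 1 library. No library stood apart for any gene in the 63 groups of 4 that were examined. The S51 vehicle RPF groups, with 3 libraries, were not examined, and they hold replicate 2, which stood apart over all genes.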

How the results depend on the processing

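Of 943 log2 fold changes of the 9 genes refitted under the other alternatives, 938 kept their side of the call, 5 gained it and 15, none of them called, changed sign. Counts of genes called were 2 (Erbb3 and Ereg) for RPFs of S51A over S51 with bortezomib when only the groups compared were fitted. By adjusted p alone the RPF count of S51A over S51 vehicle was 3. The total RNA counts were 8 and 7 for bortezomib in S51 and S51A cells (59.8% and 56.4% of all genes). They were 7 and 5 between genotypes with vehicle and bortezomib (63.8% and 65.7%), and 2 for the response difference (21.6%). At a fold limit of 1.5, total RNA gave 2 between genotypes with vehicle, 1 with bortezomib and 1 for the response difference. Library sizes alone gave 1 (Erbb3) in total RNA between genotypes with bortezomib, and the study's definition of TE gave 1 (Areg) for bortezomib in S51 cells. Where no share or count of all genes stands beside a count here or below, that count is not read as a result about the 9 genes. The causes were not tested.

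Library sizes alone moved the share of higher calls over all genes from 230 of 584 to 161 of 739 for bortezomib in total RNA of S51 cells, and from 98 of 498 to 388 of 632 in TE. In RPFs between genotypes with bortezomib it moved from 949 of 1673 to 839 of 1704.

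Replicate numbers are shared by the groups. The correlation of deviations between samples of the same number was over 0.1 in 8 of 24 pairs of total RNA (range 0.00213 to 0.191). In RPFs it was over 0.1 in 3 of 21 pairs (range -0.158 to 0.261). All total RNA values were positive but small, and they cannot decide whether the numbers pair the samples. The main fits used no block. With the replicate block the RPF counts were 3 (Erbb3, Ereg and Hbegf) for S51A over S51 vehicle and 1 (Hbegf, 1.19, adjusted p = 0.0236) for the response difference. With each lysate as a block, 0 genes were called in TE.

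Leaving out 1 library at a time gave RPF counts of 3 to 4 and 2 to 3 for bortezomib in S51 and S51A cells (1515 to 2155 and 898 to 1175 over all genes). They were 1 to 2 between genotypes at each treatment (1304 to 1874 with vehicle, 1503 to 1817 with bortezomib) and 0 to 1 for the response difference (99 to 383). In total RNA the count was 1 to 2 for bortezomib in S51A cells (467 to 523), where Errfi1 was lost without S51A vehicle replicate 1. In TE it was 0 to 1 between genotypes with vehicle (4 to 376). Footprint counts in single libraries went down to 6 for Ereg and 8 for Epgn, which limits their RPF and TE values.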
